A study of Mus musculus with 6 samples.

Results

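The Fam20 family consists of the 3 genes Fam20c, Fam20a and Fam20b, of which Fam20c had been knocked out in the osteoblasts examined here. Chromatin accessibility around them was taken from ATAC-seq peak lists by joining the peaks of 6 libraries into regions wherever they shared at least 1 bp and keeping the regions that overlapped each RefSeq gene span extended by 50 kb. This gave 35 of the 89410 regions of the series, 11 at Fam20c, 13 at Fam20a and 11 at Fam20b. The control cells, OB Fam20c f/f, were an immortalized mouse osteoblast line with floxed Fam20c alleles, and OB Fam20c KO cells were made from that line by infection with a lentivirus carrying Cre recombinase. Both were grown in αMEM with fetal bovine serum. There were 3 libraries per group, numbered 1 to 3, all from this 1 line, and nothing in the labels says that they came from separate cultures, so that p-values measure only the spread between these libraries. Infection and loss of the gene cannot be told apart, since both belong to the KO group alone.

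The FAM20 proteins work in the secretory pathway. FAM20C is the Golgi kinase that phosphorylates secreted proteins, among them the phosphoproteins of bone and enamel matrix, and its loss in humans causes Raine syndrome, a disorder of bone. FAM20A is a pseudokinase that binds FAM20C and raises its activity, and its loss disturbs enamel. FAM20B phosphorylates a xylose in the linker that joins glycosaminoglycan chains to proteoglycan core proteins. ATAC-seq uses the transposase Tn5 to cut open chromatin, and a peak marks where cuts pile up. It does not measure expression.

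KO replicate 3 stood apart, with a list of 32958 peaks, while the other 5 libraries held 62781 to 74797. It had no peak in 8 of the 11 regions at Fam20c, 10 of 13 at Fam20a and 6 of 11 at Fam20b. Because the values of a peak depend on the depth and background of its own library, each was replaced by its standing, the percentile within its list, in which 100 is the highest peak. Standings were made from the −log10 q, which grows with read number, and from the fold over local background. Peaks of all 6 libraries met in 29849 regions, for which the median difference, KO minus f/f, in standing by −log10 q was -5.72 points, and -0.19 points without KO replicate 3. Of the 6 osteoblast markers with a start site in the RefSeq table, a peak lay over it in all 6 libraries at Runx2, Col1a2 and Spp1, in 5 at Alpl and in none at Bglap and Ibsp. Sp7 and Col1a1, without a listed start, held 2 and 6 regions inside the gene. Of the markers of other cells, Ptprc and Adipoq had no peak over the start in any library, but held 2 and 1 regions inside the gene. Cdh5 and Myod1, without a listed start, also held 2 and 1 there. A region inside the gene was thus found at all 4 markers of other cells and at 6 of the 8 osteoblast markers.

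The 3 start sites are shown because the comparisons turn on the regions over them. The windows run from 250 bases before the start site to 50 after it, as RefSeq gives them for GRCm38.p6, 5′ to 3′ along the gene. Fam20c lies at chr5:138754831-138755130 on the plus strand, Fam20a at chr11:109722189-109722488 on the minus strand and Fam20b at chr1:156718861-156719160 on the minus strand. Capitals mark the GC box GGGCGG, the CCAAT box, which reads ATTGG where it lies on the other strand, and the half-site of the cyclic AMP response element, TGACG.
Fam20c: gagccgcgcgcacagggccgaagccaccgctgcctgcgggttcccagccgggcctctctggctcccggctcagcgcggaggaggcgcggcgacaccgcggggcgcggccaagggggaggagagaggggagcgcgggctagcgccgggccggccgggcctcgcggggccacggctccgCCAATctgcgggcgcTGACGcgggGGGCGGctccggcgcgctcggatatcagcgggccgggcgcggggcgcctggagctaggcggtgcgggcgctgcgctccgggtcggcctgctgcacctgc
Fam20a: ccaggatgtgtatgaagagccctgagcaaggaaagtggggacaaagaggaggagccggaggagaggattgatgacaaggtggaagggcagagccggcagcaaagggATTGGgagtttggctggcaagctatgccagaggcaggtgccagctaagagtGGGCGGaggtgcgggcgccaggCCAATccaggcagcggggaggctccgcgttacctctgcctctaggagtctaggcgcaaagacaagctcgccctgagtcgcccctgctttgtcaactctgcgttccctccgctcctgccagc
Fam20b: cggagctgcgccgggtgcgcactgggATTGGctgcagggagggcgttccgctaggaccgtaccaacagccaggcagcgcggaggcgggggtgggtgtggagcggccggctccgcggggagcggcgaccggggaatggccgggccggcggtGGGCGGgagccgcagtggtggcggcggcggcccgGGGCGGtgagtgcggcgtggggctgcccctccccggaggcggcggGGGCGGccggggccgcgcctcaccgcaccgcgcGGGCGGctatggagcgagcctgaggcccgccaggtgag

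The Fam20c and Fam20b windows were rich in G and C, and that of Fam20a was less so. The G+C content was 80.7% at Fam20c with 47 CpG dinucleotides, 80.3% at Fam20b with 43 and 61.7% at Fam20a with 13. Of 32851 promoters of the same length, 99.2% had a lower G+C content than Fam20c, 99.1% lower than Fam20b and 74.6% lower than Fam20a. The Fam20c window held 1 CCAAT box, 1 TGACG and 1 GC box, which began at -73, -58 and -49 bp from the start site and did not overlap. Fam20a held 1 GC box and 2 CCAAT boxes, and Fam20b held 4 GC boxes and 1 CCAAT box. Either strand of 35.7% of all promoters held the GC box, 37.4% the CCAAT box and 20.8% TGACG. None of the 3 windows held the TATA box TATAAA (found in 13.6% of promoters), the E-box CAGCTG (16.3%), the AP-1 motif TGACTCA (5.20%) or the RUNX motif ACCACA (16.8%) on either strand. The TEAD motif CATTCC, in 14.7% of promoters, was once in the Fam20b window on the minus strand. These are matches of letters and not binding sites.

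Fam20c, the knocked-out kinase gene, had a peak over its start site in every KO library. The gene spans chr5:138755081-138810063, and the region over its start, chr5:138754183-138756831, had a peak in all 6 libraries. Which part of the gene is floxed is not given in the sources used here, so the peaks do not check the deletion. The standing of this region by −log10 q was 92.8, 94.8 and 93.0 in f/f replicates 1 to 3 and 97.8, 96.3 and 95.1 in KO replicates 1 to 3. All 3 KO libraries were therefore above all 3 f/f libraries, with means of 93.5 ± 1.13 (SD, n = 3) and 96.4 ± 1.368 (SD, n = 3). The difference was 2.87 points, with p = 0.1 in a two-sided exact permutation test, the smallest p that 3 libraries against 3 can give.

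A standing higher in KO without overlap was found for 3.62% of the 29849 regions shared by the 6 libraries and for 6.33% of the 8580 of them that lay over a protein-coding start site. Ranked only among the regions of all 6 libraries, the Fam20c start-site region stood at 84.5, 89.1 and 82.4 in f/f and at 95.3, 92.0 and 94.6 in KO, again without overlap. By that ranking 25.1% of start-site regions were higher in KO without overlap, so that the position of Fam20c was a common one. Without KO replicate 3 the whole-list difference was 3.52 points, and 19.3% of the regions common to the other 5 libraries were higher in KO. With peaks of −log10 q under 5 left out of the lists, KO replicate 3 and f/f replicate 2 met at the Fam20c start site and the groups overlapped.

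Ranked by fold, the Fam20c start-site region did not separate the groups. Its standings were 74.0, 76.7 and 65.7 in f/f and 77.8, 74.8 and 82.1 in KO, which overlapped (difference 6.11 points, p = 0.2, two-sided exact permutation test). The region ranked lower by fold than by −log10 q in all 6 libraries, as did the start-site regions of Fam20a and Fam20b. At 1828 to 2586 bp its peaks were the widest of the 3 genes in every library but f/f replicate 1.

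Fam20b, the xylose kinase gene, had a start-site region like that of Fam20c. The gene spans chr1:156678562-156719095, and the region over its start, chr1:156718168-156719508, was the only one of its 11 regions inside the gene. Its standing by −log10 q was 89.7, 88.8 and 94.3 in f/f and 96.7, 95.5 and 90.9 in KO. The KO values were higher on average, but KO replicate 3 lay below f/f replicate 3 (difference 3.42 points, p = 0.2, two-sided exact permutation test). By fold it stood at 86.9, 87.3 and 92.6 in f/f and at 93.8, 91.9 and 90.7 in KO, the highest fold standings of the 3 start sites in all 6 libraries. Ranked only among the regions of all 6 libraries, the standings by −log10 q were 77.9, 76.5 and 85.7 in f/f and 92.8, 90.2 and 90.0 in KO, without overlap and so among the same 25.1% of start-site regions as Fam20c.

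Fam20a, the pseudokinase gene, had the lowest start-site region of the family. The gene spans chr11:109669746-109723163 and the region over its start is chr11:109720965-109723132. Its standing by −log10 q was 77.1, 81.6 and 83.8 in f/f and 76.4, 78.5 and 62.3 in KO. KO replicate 2 lay within the range of f/f, KO replicate 1 just below it, and KO replicate 3 far under it (difference -8.44 points, p = 0.2, two-sided exact permutation test). Leaving out that library brought it to -3.40 points. Standings by fold were 48.8, 58.4 and 54.2 in f/f and 54.6, 55.5 and 53.5 in KO and overlapped throughout.

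In each of the 6 libraries the order by −log10 q placed Fam20a last. Fam20c stood above Fam20b in all but f/f replicate 3, and the gap between them was 2.59 ± 3.69 points in f/f and 2.03 ± 1.85 in KO (SD, n = 3 each), which did not differ beyond the spread. The gap between Fam20c and Fam20a was 12.7 ± 3.31 points in f/f and 24.0 ± 7.80 in KO, a difference of 11.3 points (p = 0.1, two-sided exact permutation test). Between Fam20b and Fam20a it was 10.1 ± 2.70 and 21.95 ± 5.98 points, a difference of 11.9 (p = 0.1, two-sided exact permutation test). Both gaps by −log10 q in the whole lists were widest in KO replicate 3, at 32.8 and 28.6 points. They were 21.4 and 20.2 points in KO replicate 1 and 17.8 and 17.0 in KO replicate 2. Ranked only among shared regions, the Fam20c gap was 45.5, 38.3 and 36.0 points in KO replicates 1 to 3. The Fam20b gap was 43.1, 36.6 and 31.4 points, so that KO replicate 3 then had the narrowest gaps of KO. By that ranking the gaps were wider in KO by 12.2 and 14.6 points. By fold in the whole lists, the corresponding differences were 5.32 points (p = 0.4) and 2.41 points (p = 0.8) in the same exact permutation test. The gaps by fold were thus also wider in KO on average, but the libraries of the 2 groups overlapped.

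**Figure D1:**
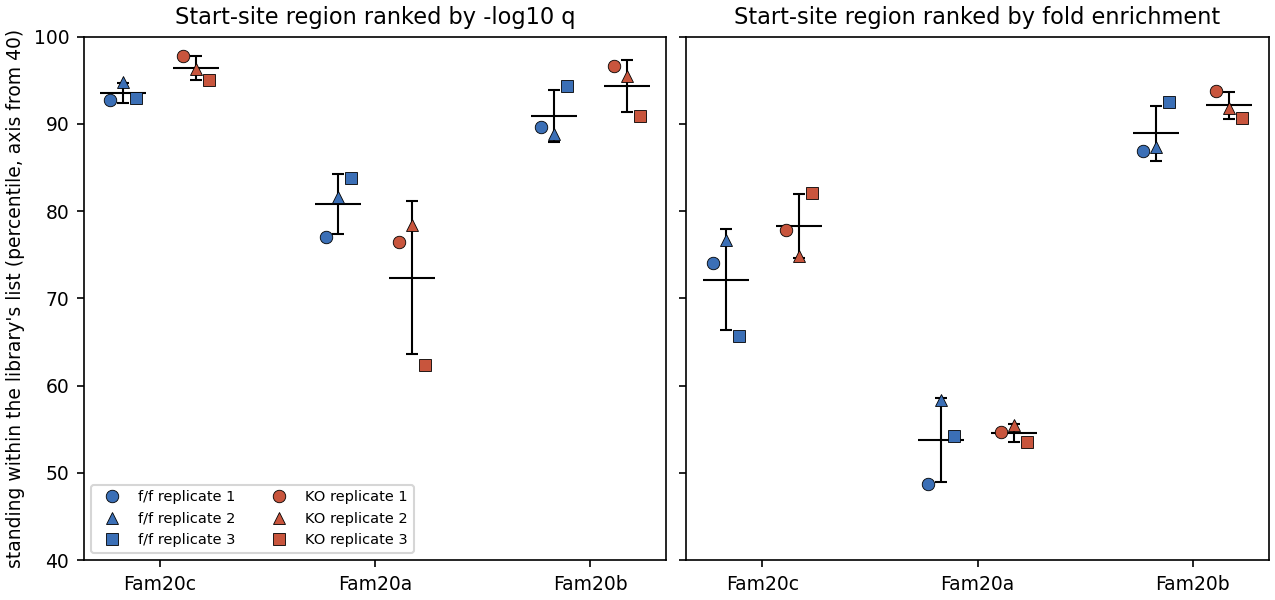
Standing of the start-site region of Fam20c, Fam20a and Fam20b within each library's list, in percentiles, by −log10 q (left) and by fold over local background (right). Blue points are f/f and red points KO libraries, with a shape for each replicate number, and bars show the mean ± SD of 3 libraries; the 3 KO values lie above the 3 f/f values only at Fam20c on the left, and Fam20a is lowest in both panels.

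The position and extent of the peak over the start site were also compared, as measures chosen after the peaks had been seen. At Fam20c the summit, where cuts were densest, lay -188, -228 and -259 bp from the start site in f/f and -131, -131 and -136 bp in KO. The KO summits were closer to the start, by 92.3 bp on average, and within 5 bp of each other (p = 0.1, two-sided exact permutation test). At Fam20b the summit lay at -214 bp in all 3 f/f libraries and at -157, -140 and -156 bp in KO, 63 bp closer to the start (p = 0.1, two-sided exact permutation test). Among 5826 start-site regions with 1 peak in each library over 1 protein-coding start, the summit was further downstream in KO without overlap in 8.02% and further upstream in 7.02%, and the median difference was 0 bp. At Fam20a the summit was spread from -33 to 625 bp over the 6 libraries and the groups overlapped (p = 0.3, two-sided exact permutation test).

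At Fam20a the upstream edge of the peak lay nearer the start in KO without overlap, as it did at 28.8% of the 5826 start sites. It lay at -781, -776 and -894 bp in f/f and at -222, -323 and -203 bp in KO, while the other edge stayed between 1215 and 1273 bp in all 6 libraries. The region ends at chr11:109723132 and the annotated gene span reaches chr11:109723163. These edges, though upstream of the start site used here, therefore lay inside the annotated span. The edge was 568 bp nearer the start in KO on average (p = 0.1, two-sided exact permutation test), and the median over the 5826 start sites was 58 bp. The Fam20a peak was thus 2002, 1992 and 2115 bp wide in f/f and 1488, 1597 and 1419 bp in KO, with a difference of -535 bp (p = 0.1, two-sided exact permutation test), and of -494 bp without KO replicate 3. A peak narrower in KO without overlap was found at 27.9% of the 5826 start-site regions, with a median difference in width of -122 bp over all of them. At Fam20b the width was 1121 to 1341 bp in f/f and 1037 to 1117 bp in KO, also without overlap (p = 0.1, two-sided exact permutation test). At Fam20c it was 1902 to 2468 bp in f/f and 1828 to 2586 bp in KO and overlapped (p = 0.6, two-sided exact permutation test).

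**Figure D2:**
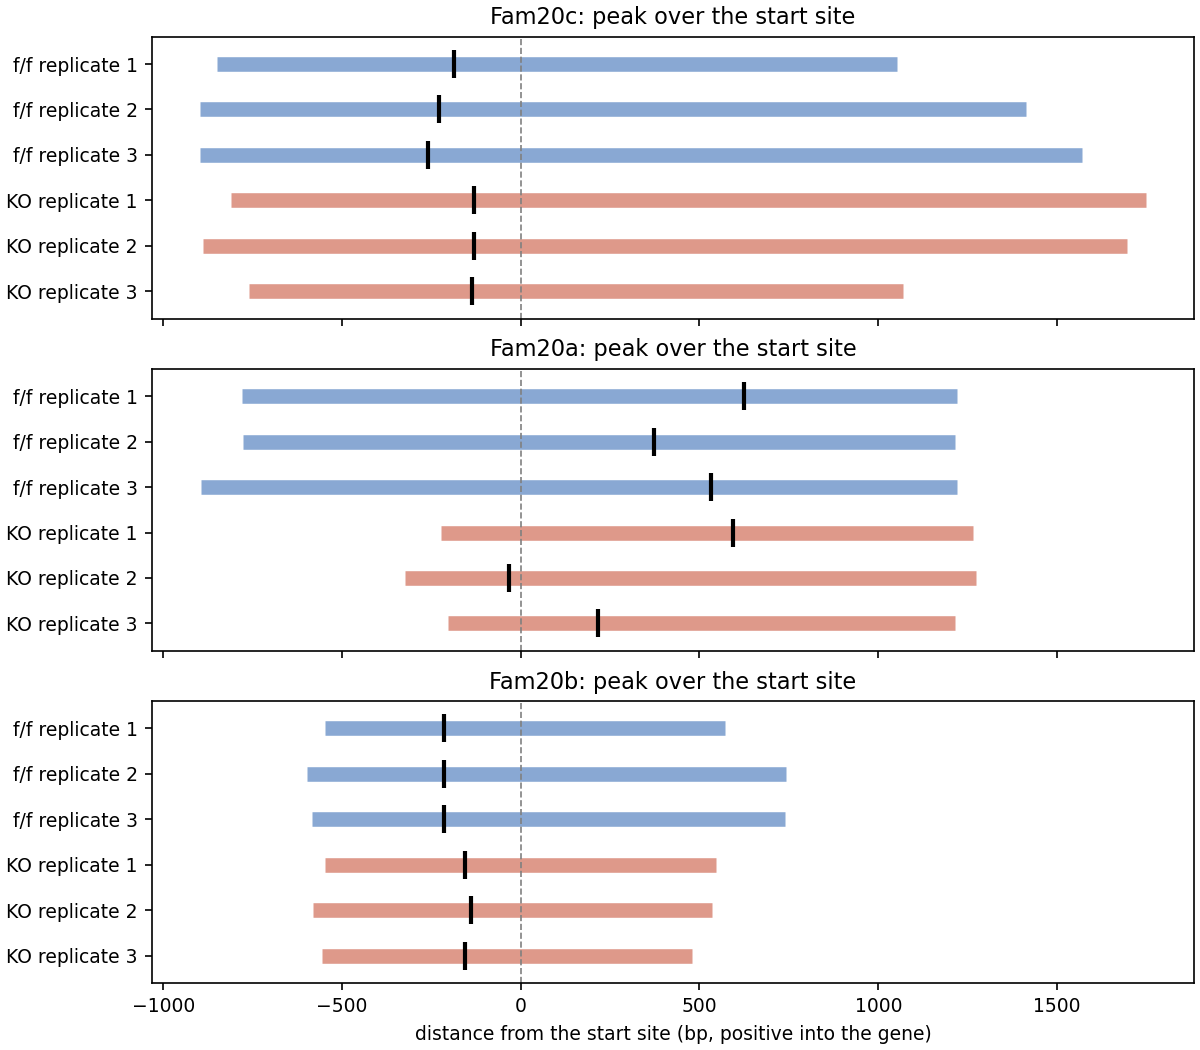
Extent of the peak over the start site of Fam20c, Fam20a and Fam20b in each library, in bp from the start site with positive values into the gene. Bars run from one edge of the peak to the other, blue for f/f and red for KO, and black ticks are summits; the KO summits are closer to the start at Fam20c and Fam20b, and the upstream part of the Fam20a peak is missing from the 3 KO lists.

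Inside the genes, away from the start, only Fam20a held regions seen in most libraries. Of its 6 regions within the span, that at chr11:109670105-109672353, at the end of the gene away from the start, had a peak in all 6 libraries. Its standing by −log10 q was 76.0, 82.1 and 80.5 in f/f and 70.8, 75.4 and 57.6 in KO, lower in KO without overlap. By fold the groups overlapped, and ranked only among the regions of all 6 libraries they overlapped as well, at 49.6, 62.5 and 51.6 in f/f and 38.7, 47.2 and 53.5 in KO. The other 4 regions inside Fam20a were in no KO replicate 3 list. Of these, chr11:109704307-109705083 stood at 25.4, 32.1 and 38.9 in f/f and at 4.20 and 2.63 in KO replicates 1 and 2, chr11:109681467-109682205 at 42.4, 43.6 and 49.0 against 38.2 and 43.0, and chr11:109714796-109715991 at 16.4, 38.5 and 48.5 against 24.3 and 26.5. The first of these stood near the foot of the list in both KO libraries, the second was lower in KO replicate 1 and within the f/f range in KO replicate 2, and the third overlapped. The fourth, chr11:109690106-109690474, was a weak peak in f/f replicates 2 and 3 alone, at 7.91 and 15.2.

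Fam20c had 2 weak regions inside the gene beside its start. The first, chr5:138769229-138769507, was called in KO replicate 1 alone, at 0.92. The second, chr5:138775041-138775359, was called in f/f replicates 1 and 3, at 1.59 and 9.56. Both were near the foot of their lists, so that no region inside Fam20c beyond the start was shared by the libraries of either group. The annotation used here gives gene spans without exons, and none of these regions was assigned to an exon or intron.

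Around Fam20c, the region with the highest mean standing was that over the start site, and 8 of the 11 lay outside the gene. An f/f-only region, defined by a peak in 3 of 3 f/f and 0 of 3 KO libraries, lay upstream at chr5:138740270-138740641, -14.6 kb from the start site. It was a weak peak, with standings by −log10 q of 20.6, 19.5 and 18.6 and values of −log10 q of 7.68, 6.85 and 8.16 in f/f replicates 1 to 3. Further upstream, chr5:138724194-138725507 stood at 53.3, 60.8 and 59.7 in f/f and at 45.8, 57.3 and 21.5 in KO, which overlapped (difference -16.4 points). Beyond the other end of the gene, chr5:138847711-138848713 stood at 79.3, 80.0 and 82.2 in f/f and at 78.5, 71.6 and 41.4 in KO, lower in KO without overlap by −log10 q and by fold. Its neighbour chr5:138857201-138857810 was in all libraries but KO replicate 3, at 65.7, 56.6 and 62.7 in f/f and 48.2 and 45.2 in KO. The other 6 regions of the window were in 1 or 2 libraries each, including the 2 weak ones inside the gene.

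Around Fam20b, 1 region was f/f-only and 1 was KO-only. The f/f-only region, chr1:156752300-156752755, lay upstream of the start in the annotated gene Gm39683 and stood at 29.8, 32.8 and 36.8 in f/f. The KO-only region, chr1:156658557-156659021, lay beyond the other end of Fam20b within Tor3a, which encodes a torsin ATPase, and stood at 30.6, 23.3 and 12.8 in KO. Both were in the lower part of their lists. The region within Tor3a at chr1:156673236-156675017 stood at 92.1, 92.1 and 94.3 in f/f and 91.7, 93.8 and 88.4 in KO, and overlapped. The region in Abl2, a tyrosine kinase gene, at chr1:156639380-156640192 stood at 89.1, 88.3 and 88.3 in f/f and at 79.6, 83.9 and 64.6 in KO, lower in KO without overlap. A second region of Tor3a, chr1:156666843-156668108, stood at 87.3, 85.2 and 89.5 in f/f and at 85.5, 88.0 and 78.0 in KO, and overlapped.

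Another 3 regions near Fam20b were missing from KO replicate 3 alone. The region upstream of the start at chr1:156741495-156742532 stood at 55.7, 64.5 and 54.6 in f/f and at 30.1 and 41.2 in KO replicates 1 and 2. In Abl2, chr1:156632983-156633641 stood at 53.7, 51.9 and 53.1 in f/f and at 39.4 and 42.1 in KO. In Tor3a, chr1:156654838-156655586 stood at 28.4, 33.6 and 34.8 in f/f and at 21.6 and 13.02 in KO. In each of these regions both KO libraries with a peak lay below all 3 f/f libraries. The last 2 regions near Fam20b were in 2 libraries each, 1 in f/f replicates 2 and 3 and 1 in KO replicates 1 and 2.

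Around Fam20a there was neither an f/f-only nor a KO-only region. The region with the highest mean standing in its window lay in the neighbouring gene Prkar1a, which encodes a regulatory subunit of protein kinase A, at chr11:109650044-109651953. It stood at 90.1, 89.4 and 91.4 in f/f and at 88.2, 88.4 and 81.0 in KO, lower in KO without overlap by −log10 q, but not by fold or when ranked only among shared regions. Further along, chr11:109621001-109621764 in Gm11685 was missing from KO replicate 3 alone, and stood at 58.7, 67.1 and 71.1 in f/f and at 51.9 and 45.1 in the other KO libraries, all below f/f. The other 5 regions outside Fam20a were in 1 to 3 libraries each, with standings from 4.83 to 38.7.

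**Figure D3:**
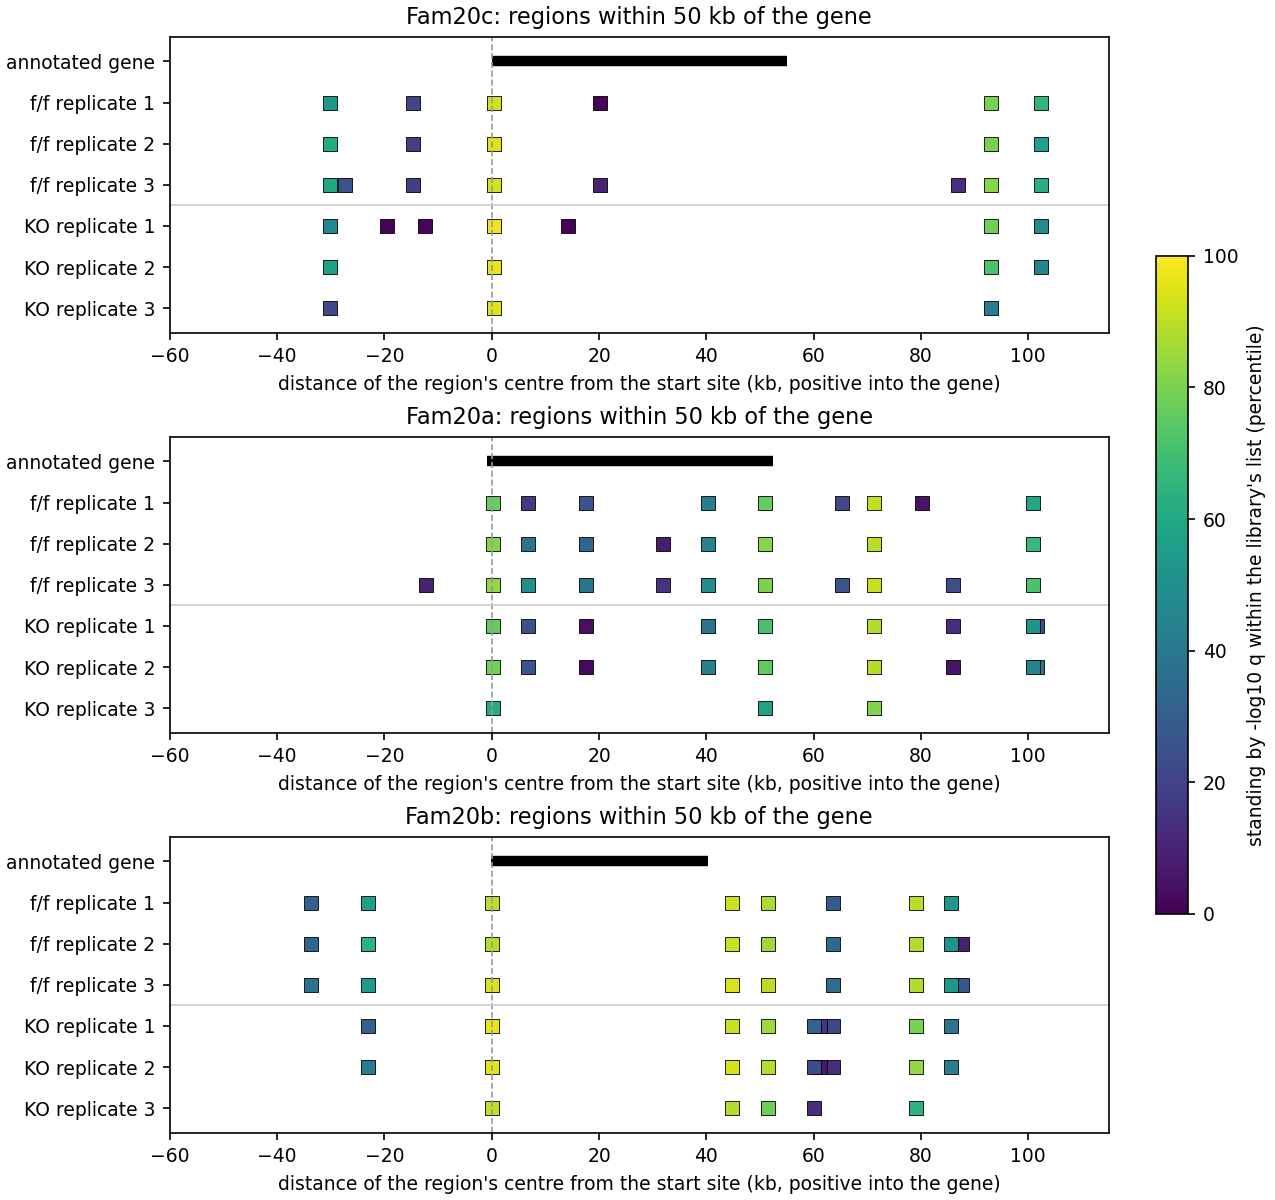
Regions within 50 kb of Fam20c, Fam20a and Fam20b in each library, placed by the distance of their centre from the start site in kb, positive into the gene. The black bar is the annotated gene, each square is a region with a peak in that library and its colour is the standing by −log10 q; the start site and 2 other regions of Fam20c are present in all 6 rows, and the region -14.6 kb from its start is present in the 3 f/f rows alone.

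Over the 35 regions, 2 were f/f-only and 1 was KO-only, against 3.75% f/f-only and 0.179% KO-only over all regions of the series. An f/f-only region lay within 50 kb of 22% of the 21887 protein-coding genes and a KO-only region within 50 kb of 1.29%, so that the f/f-only regions near Fam20c and Fam20b were of a kind found near many genes. Without KO replicate 3, 2 of the 35 were f/f-only and 3 were KO-only, against 3.82% and 2.93% of all regions. The added KO-only regions were 1 at Fam20a and 1 at Fam20b.

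Of the 10 regions of the family shared by the 6 libraries, 3 at Fam20c, 3 at Fam20a and 4 at Fam20b, 1 was higher in KO and 4 were lower in KO without overlap. Over all such regions 3.62% were higher and 25.5% lower, and over those at protein-coding start sites 6.33% were higher and 21.2% lower. The higher one was the Fam20c start site, and the lower ones were 1 near Fam20c, 2 at Fam20a and 1 near Fam20b. Without KO replicate 3, 18 regions of the family were shared by the other 5 libraries, of which 2 were higher, the start sites of Fam20c and Fam20b, and 10 were lower, against 19.3% and 27.8% of all such regions. No test was made of these counts.

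Values over each window were compared by tests whose smallest p is 0.1, so that none could pass 0.05. Fam20c had 6, 5 and 8 regions in f/f and 7, 4 and 3 in KO, a difference of -1.67 regions (p = 0.4, two-sided exact permutation test). Fam20a had 9, 8 and 11 in f/f and 9, 9 and 3 in KO (difference -2.33, p = 0.6), and Fam20b 8, 9 and 9 in f/f and 9, 9 and 5 in KO (difference -1, p = 1.0), by the same exact permutation test. Low counts were seen in KO replicate 3 at all 3 genes. Their part in these differences is seen in the values without that library, which were -0.83, -0.33 and 0.33 regions. The median protein-coding gene had 8 regions within 50 kb.

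The mean standing by −log10 q of the shared regions was lower in KO at Fam20c. It was 75.1, 78.5 and 78.3 in f/f and 74.0, 75.04 and 52.7 in KO, a difference of -10.1 points (p = 0.1, two-sided exact permutation test) in which the 2 shared regions outside the gene were lower and the start site higher. Without KO replicate 3 it was -2.79 points over the same 3 regions and -5.83 points over the 4 regions shared by the remaining 5 libraries, and with lists of equal length -2.34 points. Ranked only among the regions of all 6 libraries, it was -3.59 points. For comparison, the median whole-list difference over all 29849 shared regions was -5.72 points. At Fam20a the difference was -8.15 points (p = 0.1) and at Fam20b -3.54 points (p = 0.4), each by the exact permutation test. By fold the differences were -10.9 points at Fam20c (p = 0.1), -0.37 at Fam20a (p = 0.8) and -1.47 at Fam20b (p = 0.7), by the same exact permutation test. KO replicate 3 gave the lowest standing by −log10 q in every window. With Benjamini-Hochberg adjustment over these 11 tests of windows, the smallest adjusted p was 0.275, and over the 21 tests at start sites it was 0.262, by the exact permutation test in each case.

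The comparison of Fam20c with its paralogues was made within each library, over the shared regions of each window. For the paralogues these included regions in neighbouring genes, in Abl2 and Tor3a near Fam20b and in Prkar1a near Fam20a. For Fam20c they included regions outside the gene. Fam20c minus the mean of Fam20a and Fam20b was -9.42 ± 1.28 points by −log10 q in f/f and -13.7 ± 6.45 in KO (SD, n = 3 each), a difference of -4.24 points (p = 0.4, two-sided exact permutation test). By fold it was -1.03 ± 0.97 in f/f and -11.0 ± 9.41 in KO, a difference of -9.95 points (p = 0.1, two-sided exact permutation test). Much of both differences lay in KO replicate 3, at -21.1 points by −log10 q and -21.8 by fold. Over the same regions without it, the differences were -0.52 points by −log10 q and -4.55 by fold. By fold, KO replicates 1 and 2, at -4.59 and -6.57 points, still lay below f/f replicates 1 to 3, at -2.06, -0.15 and -0.88. When the regions shared by the remaining 5 libraries were used instead, 18 in place of 10, the differences were 2.95 and -0.41 points. Within the gene spans alone, Fam20c was higher relative to its paralogues in KO by 6.16 points by −log10 q (p = 0.1, two-sided exact permutation test). By fold it was higher by 5.24 points (p = 0.5, same exact permutation test). Inside the spans of Fam20c and Fam20b the start site was the only shared region.

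**Figure D4:**
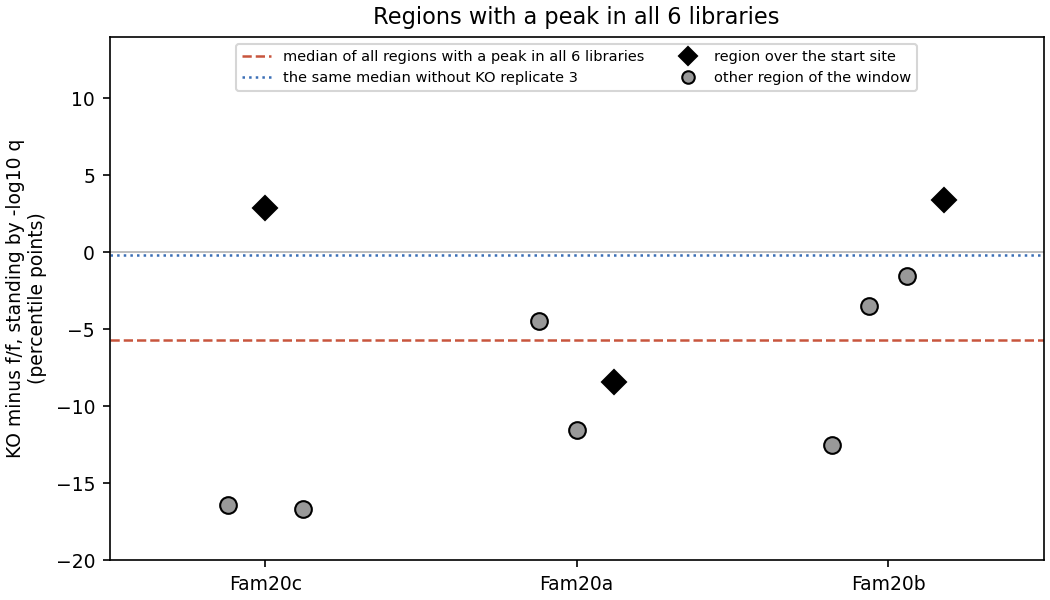
Difference, KO minus f/f, in the standing by −log10 q of each region shared by the 6 libraries at Fam20c, Fam20a and Fam20b, in percentile points. Diamonds are regions over start sites, circles other regions of the window, and the dashed and dotted lines the medians of all such regions of the series with and without KO replicate 3; the start sites of Fam20c and Fam20b lie above both lines and the other regions of Fam20c are the lowest.

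In the 2.5 Mb on either side of the start sites, beyond the windows, the surroundings of Fam20c held 477 regions, of which 4 were f/f-only (0.839%). There were 12 f/f-only regions among 195 (6.15%) around Fam20a and 7 among 156 (4.49%) around Fam20b. The f/f-only region near Fam20c thus lay in surroundings with few of its kind. The median difference in standing by −log10 q of the surrounding regions was -4.66 points around Fam20c, -8.88 around Fam20a and -6.02 around Fam20b. These medians are over regions of all kinds. Over the 8580 shared regions at start sites of the series, the median was -2.60 points, below the differences at the start sites of Fam20c (2.87) and Fam20b (3.42) and above that at Fam20a (-8.44).

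Genes of the same biology were looked at beside the family. Of 10 other kinases and kinase-like proteins of the secretory pathway, 9 had a region inside the gene. The windows of the 10 held 100 regions, 1 of them f/f-only (near Dipk1a) and 0 KO-only, against 3.75% and 0.179% of all regions. Of the 38 shared by the 6 libraries, 2 were higher and 7 lower in KO without overlap, against 3.62% and 25.5% of all shared regions. The most regions were at Dipk1a, with 22, and the fewest at Dipk2b, with 0. Of 6 genes for the glycosaminoglycan linker on which FAM20B acts, all had a region inside the gene, and their windows held 60 regions, 2 of them f/f-only (at Xylt1, a xylosyltransferase gene, and near Pxylp1, which encodes the phosphatase that removes the phosphate FAM20B adds) and 0 KO-only. Of their 35 shared regions, 0 were higher and 10 lower in KO without overlap, beside the same 3.62% and 25.5%, and their f/f-only regions stood beside 3.75% of all regions, so that these counts were near those of the series. Pxylp1 had the most regions of these, with 17, and B3galt6 the fewest, with 7.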

How the data were processed

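Peak lists of 6 ATAC-seq libraries, 3 per group, were used, with groups and replicate numbers from the sample labels. The authors trimmed reads, aligned them to mm10 with BWA and called peaks for each library with MACS2 2.1.2 (submitters' processing notes) at a q-value of 0.05. Each deposited list gives a score, the fold over local background as a ratio, the −log10 p, the −log10 q and, as another value, the summit's offset within the peak. The lists carry no reads, so depth is shown only by 32958 to 74797 peaks per library, and a missing peak means one below the authors' threshold. The score and −log10 p were not analysed.

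All listed peaks, which lie on the autosomes, X and Y, were merged where they shared 1 bp. Where a library had several peaks in a region, the highest was taken. Spans and promoters came from RefSeq, GRCm38.p6. Groups were compared by exact permutation tests over the 20 assignments of 3 of 6 libraries, two-sided, with no p below 0.1. Percentages over all regions are descriptions.

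Members and lists were chosen with earlier results of these data known. Regions described by rule are those over a gene or its start, the highest of each window, those with peaks in 1 group alone, and shared regions whose standings did not overlap; the others were named after their values were seen. In the lists, genes with a region of 1 group alone and those with the most and fewest regions were named. The genes most like each member had the smallest mean absolute difference in the standing of their highest region. Alternatives were a window of 3 kb, the gene span alone, peaks with −log10 q of 5 or more, equal numbers of peaks, merging at 50% of the shorter peak, ranking among shared regions, the highest region of a window alone, peaks in 2 of 3 libraries, the replicate block and each library left out. The procedure was tested on simulated lists. The tools were pandas 2.3.3, numpy 2.4.6, matplotlib 3.10.9 and scipy 1.17.1 under Python 3.11.15.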

Additional observations from a re-analysis of the deposited data

How the results depend on the processing

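No test here could pass 0.05, so directions and counts alone were compared. Of 311 recomputed values, 256 kept direction or stayed within 1.5 times a count, 28 reversed and 27 moved, and the causes were not tested. Some of the 256 could not change. The replicate block leaves each difference as it is, and start-site standings do not depend on the window. With 3 kb around the span and with the span alone, differences reversed at Fam20c (2.87 points by −log10 q, 6.11 by fold) and Fam20b (3.42, 3.21). The contrast of Fam20c against its paralogues reversed as well (6.16, 5.24). In these settings the start site was the only shared region of Fam20c and of Fam20b, so the values at both genes repeat their start-site differences. The region count at Fam20b moved to 0, f/f-only and KO-only regions to 0 and lower regions to 1. The highest region alone gave 2.87 and 6.11 at Fam20c, 1.81 by fold at Fam20a, 3.42 and 3.21 at Fam20b and 3.38 and 3.61 for the contrast. Ranking among shared regions gave 6.54 by fold at Fam20a, 2.59 at Fam20b, 2 higher and 2 lower regions. Equal numbers of peaks gave 10.6 by fold at Fam20a and 3.98 at Fam20b, 1 f/f-only, 0 KO-only, 2 higher and 2 lower regions. At −log10 q of 5 or more, KO-only and higher regions went to 0. Peaks in at least 2 of 3 libraries gave 6 f/f-only and 3 KO-only regions. Ranking among shared regions without KO replicate 3, added after the data were seen, gave 1.23 for the contrast by −log10 q, 2 higher and 10 lower.

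Leaving out each library in turn gave the contrast by −log10 q -6.37 to 2.95, the fold standing at Fam20a -9.13 to 1.55 and at its start site -1.71 to 3.10, Fam20b's region count -1.67 to 0.33, 2 to 4 f/f-only, 1 to 3 KO-only, 1 to 2 higher and 4 to 10 lower regions; the shared regions were chosen anew each time, so that their number also changed. There were 4 f/f-only regions when f/f replicate 1 or 2 was left out, and 7 lower regions when KO replicate 2 was. Same-numbered libraries share only a number (correlations of deviations 0.07, -0.10 and -0.12). With the replicate number as a block, the difference by −log10 q remained -10.1 points at Fam20c and -8.15 at Fam20a, each with p = 0.25, the smallest possible in this exact permutation test of sign patterns.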

Other observations

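The start-site region of Fam20c had its closest likeness, by the mean absolute difference in standing by −log10 q over the 6 libraries among 13228 protein-coding genes, in the highest regions of Btg2 (0.62 points), Fyn (0.79 points) and Ran (0.81 points). For Fam20a these were Tnfsf12 (0.91 points), Hmga1 (1.00 points) and Rbpms2 (1.00 points). For Fam20b they were Fam111a (0.78 points) and the neighbouring genes Orc3 and Rars2, which share a region (0.78 points). These are likenesses of rank in 6 libraries of 1 line.

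Among 8580 start-site regions with a peak in all 6 libraries, Fam20c stood at the 65.1, 74.0 and 58.8 percentile by −log10 q in f/f and at 88.7, 80.2 and 87.1 in KO. Fam20b stood at 52.2, 48.1 and 65.8 in f/f and at 82.3, 76.1 and 75.8 in KO, and Fam20a at 20.5, 26.5 and 25.01 in f/f and at 14.2, 18.0 and 22.6 in KO. The KO values lay above the f/f values at Fam20c and Fam20b. For comparison, 25.1% of start-site regions were higher in KO without overlap when ranked among all shared regions, and 88.7% and 90.3% of start-site regions had a whole-list difference at or below those of Fam20c and Fam20b. By fold the groups overlapped at both genes. Fam20c stood at the 35.5, 34.3 and 22.6 percentile by fold in f/f and at 33.6, 28.6 and 55.0 in KO. Fam20b stood at 60.4, 56.2 and 75.5 in f/f and at 75.2, 68.4 and 75.1 in KO.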
